A study of Mus musculus with 224 samples.

Results

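The livers of 8 BALB/cJ mice sampled on day 5 are described here, 4 fed a high-fat diet (HFD) and 4 fed regular chow (RC). BALB/cJ is an inbred albino mouse strain. The 8 animals were taken by strain, day and diet in the sample labels and are 8 of the 72 mice whose livers were sequenced and tabulated, in a series that also holds muscle and visceral fat and that crosses 2 diets with 3 strains, DBA/2J and C57BL/6J being the others, and with 3 sampling days (5, 13 and 33). Animals are named by their title code without its tissue letter, as 3HF201, 3HF202, 3HF203 and 3HF224 on HFD and 3RC201, 3RC202, 3RC203 and 3RC251 on RC, and values given for 4 animals stand in this order. The sources used here do not give diet content, sex, age, hour of sampling or fasting. The Y-linked genes Ddx3y, Eif2s3y, Kdm5d and Uty were detected in all 8 livers. The question the comparison asks is how the liver transcriptome of this strain differs in the first days on a high-fat diet.

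As background, the liver turns dietary carbohydrate into fatty acids and sterols when fat intake is low, and takes up and burns fatty acids when fat intake is high. The sterol sensor SREBP2 drives the enzymes of cholesterol synthesis when cell cholesterol is low, and the fatty acid sensor PPAR alpha drives oxidation genes when fatty acids arrive. The same hepatocytes oxidise and conjugate drugs and steroids, make bile acids, release glucose between meals and secrete most plasma proteins, and several of these programs follow the daily rhythm of feeding and of glucocorticoid hormone. Mouse liver also carries genes with a male or female bias set by the pulses of growth hormone, among them the major urinary proteins.

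Levels are log2 CPM, the log2 of read counts scaled by the authors to library size. A difference is a log2 fold change, HFD minus RC, with the standard error (SE) of the fit. A gene is called when its limma p, adjusted by Benjamini-Hochberg over all 12611 tested genes, is under 0.05. The 8 libraries held 24296653 to 28180453 reads on HFD and 21777396 to 28482339 on RC. Diet changed 1574 of 12611 genes (12.5%), of which 790 rose on HFD (6.26%) and 784 fell (6.22%). In 1280 genes (10.1%) the 4 HFD and 4 RC values did not overlap, which is as far as an exact permutation test of 4 against 4 can go (two-sided p = 0.0286), and 763 of these were called.

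The HFD livers differed among themselves more than the RC livers did. The typical distance of an animal from the others of its group, as a root mean square over genes, was 0.42, 0.51, 0.70 and 0.86 on the log2 scale in 3HF201, 3HF202, 3HF203 and 3HF224, against 0.38, 0.38, 0.49 and 0.55 in 3RC201, 3RC202, 3RC203 and 3RC251. 3HF224 and 3RC251, whose numbers lie apart from those of the other 6, were the farthest of their groups. Without both, 2811 genes were called (1423 higher, 11.3%, and 1388 lower, 11.01%). Of these 1381 were among the 1574, and all 1574 kept their direction. This setting was chosen after seeing the data. It drops the farthest animal of each group and keeps 6 of the same 8 livers. Its counts, here and below, are therefore no independent check. Leaving out 1 animal gave 1036 called genes without 3HF201, 775 without 3HF203, 2501 without 3HF224, 939 without 3RC201 and 761 without 3RC203. In all 8 such fits 432 genes were called. Over all genes, 393 (without 3HF203) to 1320 (without 3HF224) fell in these fits. Those that rose numbered 339 (without 3RC203) to 1181 (without 3HF224). List counts without 1 animal, given below, move on top of these changes in the count over all genes. With the spread taken from the 8 animals alone, 38 genes passed (0.301%, 14 higher and 24 lower), and 36 of them were among the 1574. Among the genes named below, 13 passed there: Eci1, Ech1, Cyp2b9, Ces2a, Ces3b, Cyp27a1, Gadd45a, Per1, Rasgef1b, Serpina12, Arrdc3, Ddah1 and Herpud1. Every other call below therefore rests on a spread shared with the other liver groups. In a fit with weights per group, where a low weight stands for a wide spread, these HFD livers had the lowest weight of the 18 groups. It was 0.451, against 0.721 for the next lowest group and 1.003 for their RC group. The shared spread is thus narrower than that of these HFD livers. Of the 131 called genes named in the text, 72 lost their call in the weighted fit. Fits that leave out 1 animal keep the shared spread and do not test this.

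**Figure D1:**
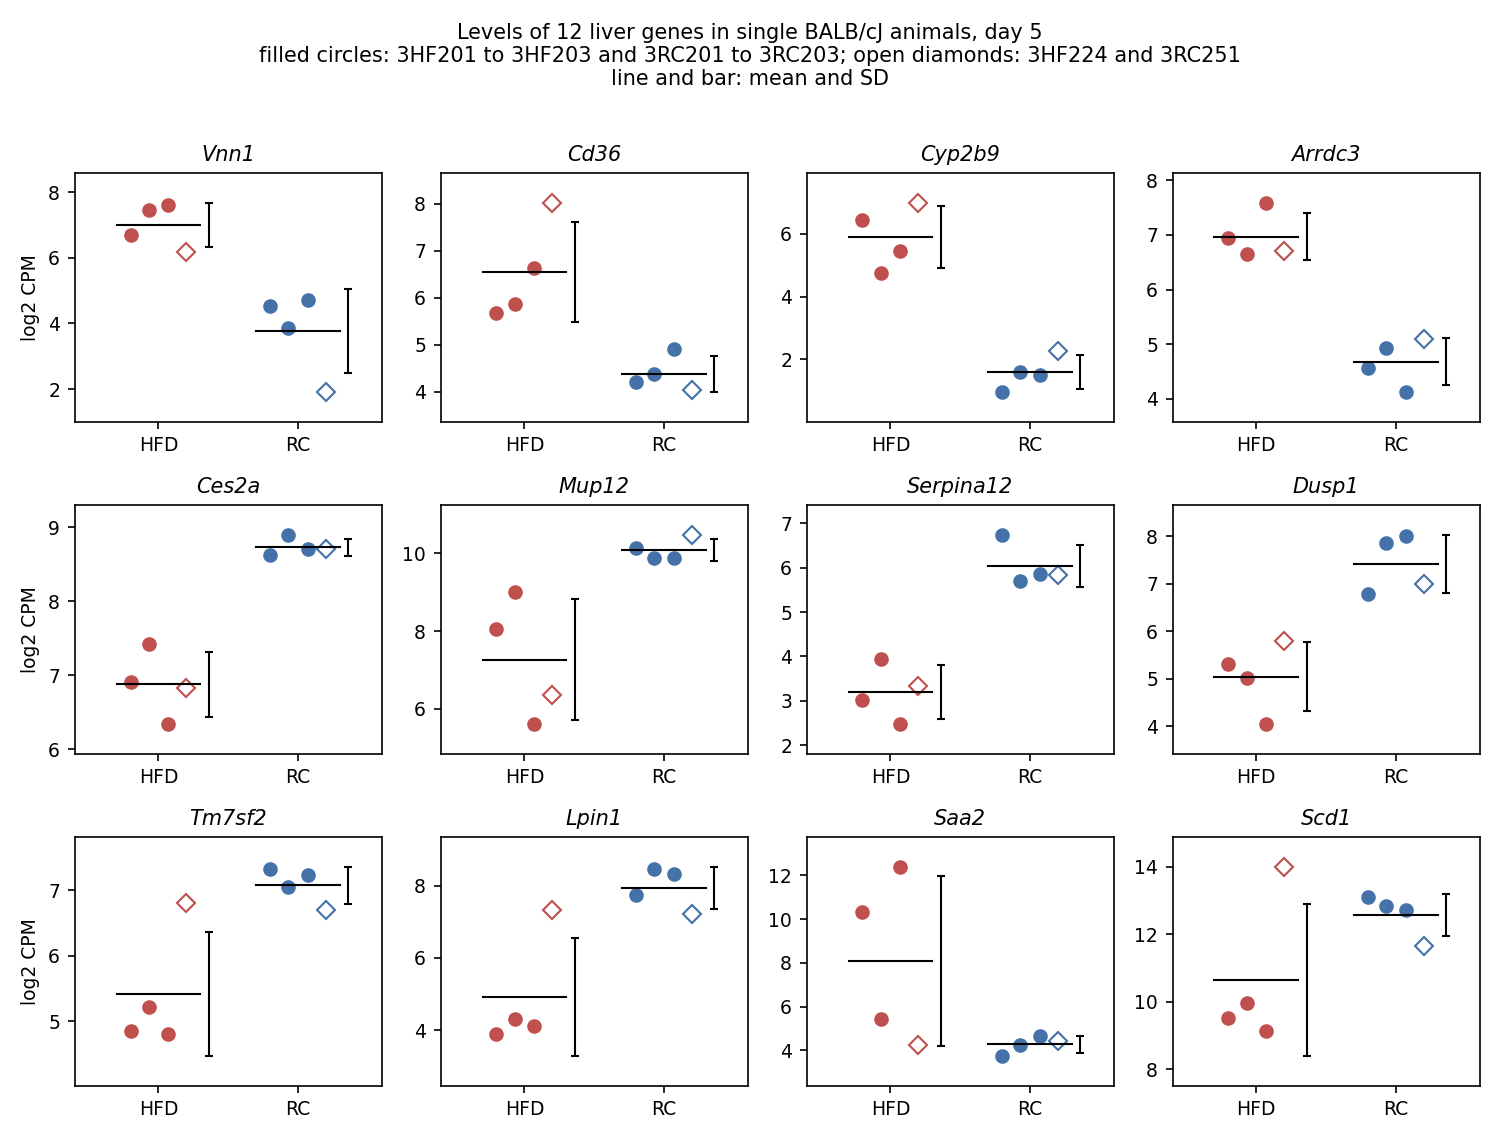
Level (log2 CPM, vertical axis) of 12 genes in each of the 4 HFD and 4 RC livers. Open diamonds are 3HF224 and 3RC251, filled circles the other 6 animals, lines the mean and bars the SD. The groups do not overlap for the first 8 genes, while for Tm7sf2, Lpin1, Saa2 and Scd1 single HFD animals lie within or beyond the RC range.

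Fat uptake and oxidation genes were among the largest rises. Vnn1 (ENSMUSG00000037440, chromosome 10, 23894688 to 23905343, GRCm38), a pantetheinase that recycles part of coenzyme A and a textbook PPAR alpha target, stood at 6.70, 7.47, 7.60 and 6.19 log2 CPM on HFD, against 4.53, 3.86, 4.72 and 1.92 on RC. All 4 HFD animals were above all RC animals, and 3RC251 was lowest. The HFD mean was 6.99 ± 0.66 and the RC mean 3.76 ± 1.28 (SD, 4 animals each), which is 9.39-fold higher on HFD (log2 fold change 3.23 ± 0.53, adjusted p = 2.62e-05). Cd36 (ENSMUSG00000002944, chromosome 5, 17781690 to 17888801), the fatty acid translocase of the cell surface, had 5.67, 5.87, 6.64 and 8.0 log2 CPM on HFD, against 4.20, 4.38, 4.90 and 4.03 on RC. 3HF224 was the highest and the groups did not overlap. Its level was 4.49-fold higher (2.17 ± 0.57, adjusted p = 0.00818), but without 3HF224 and 3RC251 the adjusted p was 0.0711. Because these are bulk tissue libraries, a change in the number of cells of a type and a change in RNA per cell cannot be told apart for any gene below.

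Cyp4a14 (ENSMUSG00000028715, chromosome 4, 115486200 to 115496142), a microsomal fatty acid omega-hydroxylase, had the largest rise among genes above the median level whose groups were separate. It stood at 10.39, 11.36, 10.36 and 10.41 log2 CPM on HFD, against 6.69, 7.27, 8.90 and 1.94 on RC. The HFD values lay close together, whereas the RC animals spread over almost 7 log2 units with 3RC251 at the bottom. The mean difference was 4.43 ± 1.26 (adjusted p = 0.0142), and it was not called without 3RC251 (adjusted p = 0.0947). Its neighbour Cyp4a10 had 9.54, 10.42, 9.05 and 9.85 log2 CPM on HFD, against 7.96, 7.96, 9.38 and 3.02 on RC, and did not pass (adjusted p = 0.0687). Members of the Cyp4a family are near-identical in places, so reads may be split between copies.

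Of 16 measured enzymes of mitochondrial fatty acid oxidation 6 rose and 0 fell, with a median log2 fold change of 0.28 against 0.02 for all genes. The risers were Eci1, Acadm, Acadvl, Acadl, Hadhb and Decr1, which act on fatty acyl-CoA chains and their double bonds in the matrix. Eci1 (ENSMUSG00000024132, chromosome 17, 24426641 to 24439348), an enoyl-CoA isomerase, had 7.21, 7.53, 7.28 and 7.48 log2 CPM on HFD, against 6.79, 6.60, 6.68 and 6.40 on RC, a 1.69-fold higher level (0.76 ± 0.16, adjusted p = 0.000739). Acadm, the medium-chain acyl-CoA dehydrogenase, had 9.12, 9.52, 9.14 and 9.43 on HFD, against 8.80, 8.61, 8.71 and 8.32 on RC (0.69 ± 0.14, adjusted p = 0.000867). For both genes the groups were separate, and 3HF202 and 3HF224 were the higher HFD animals. Cpt1a, which loads fatty acids for entry into mitochondria, did not pass, with 8.96, 9.12, 9.52 and 8.90 on HFD, against 9.49, 9.14, 9.59 and 8.57 on RC (-0.07 ± 0.21, adjusted p = 0.865).

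Decr1 lost its call in 5 of the 8 fits that left out 1 animal (highest adjusted p = 0.16, without 3HF224). Without 3HF224 and 3RC251 the list had 3 risers, and Acadl, Hadhb and Decr1 were not called (adjusted p = 0.146, 0.119 and 0.386). Of 20 peroxisomal and microsomal oxidation genes 2 rose and 1 fell (median 0.48). Ech1, a dienoyl-CoA isomerase, had 9.12, 9.31, 9.16 and 9.27 log2 CPM on HFD, against 8.53, 8.50, 8.46 and 8.15 on RC (0.81 ± 0.14, adjusted p = 0.000102), and each HFD animal exceeded each RC animal by more than the range within a group. Cyp4a12a, an omega-hydroxylase with male bias, fell (-0.75 ± 0.22, adjusted p = 0.0183), although without 3HF224 its adjusted p was 0.0612.

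Of 21 measured PPAR alpha targets outside the oxidation lists 2 rose, Vnn1 and Cd36, and 3 fell (median -0.26). Angptl4, an inhibitor of lipoprotein lipase, had 6.91, 6.80, 7.04 and 6.97 log2 CPM on HFD, against 8.16, 8.20, 8.32 and 7.15 on RC (-1.03 ± 0.35, adjusted p = 0.0418). Plin5, a lipid droplet protein, had 6.00, 6.23, 6.24 and 7.44 on HFD, against 8.46, 8.30, 8.71 and 6.75 on RC (-1.58 ± 0.40, adjusted p = 0.00566). In both genes 3RC251 was the lowest RC animal. Acsl1, which activates fatty acids, fell by 0.59 (SE 0.20, adjusted p = 0.0455). The calls of Angptl4 and Acsl1 ended in 6 and 5 of the 8 fits that left out 1 animal, with highest adjusted p of 0.145 (without 3RC203) and 0.4 (without 3HF203).

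Pdk4, the kinase that shuts off pyruvate use, was among the most scattered genes, with 3.03, 4.41, 4.55 and 4.26 log2 CPM on HFD, against 6.20, 4.19, 8.16 and 1.82 on RC (adjusted p = 0.425). Among 6 ketone body genes 1 rose and 1 fell. The riser Acat1 (0.39 ± 0.13, adjusted p = 0.0414) lost its call in 6 of the 8 fits without 1 animal (highest adjusted p = 0.116, without 3HF202), and Bdh2 fell by 0.73 (SE 0.16, adjusted p = 0.00128).

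Transcripts of cholesterol synthesis enzymes had lower means on HFD. The HFD and RC values overlapped for all 20, and 0 were called with the spread of the 8 animals alone. All 20 enzymes had a negative log2 fold change (median -0.73), and 9 fell by the test while 0 rose: Tm7sf2, Cyp51, Sqle, Dhcr7, Idi1, Fdps, Nsdhl, Hsd17b7 and Msmo1. Tm7sf2 (ENSMUSG00000024799, chromosome 19, 6062821 to 6068373), a sterol reductase, had 4.85, 5.22, 4.81 and 6.81 log2 CPM on HFD, against 7.32, 7.04, 7.23 and 6.69 on RC, a 3.13-fold lower level (-1.65 ± 0.27, adjusted p = 3.34e-05). Sqle, squalene epoxidase, had 2.35, 1.67, 3.06 and 5.27 on HFD, against 5.64, 3.95, 5.60 and 4.42 on RC (-1.81 ± 0.55, adjusted p = 0.0228). In both genes 3HF201, 3HF202 and 3HF203 lay below every RC animal and 3HF224 lay within the RC range.

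The same split ran through the list. The median member stood at -0.91, -1.16, -1.24 and 0.29 log2 units from the RC mean in 3HF201, 3HF202, 3HF203 and 3HF224, and at 0.30, -0.36, 0.40 and -0.37 in 3RC201, 3RC202, 3RC203 and 3RC251. Without 3HF224 and 3RC251, 15 of 20 enzymes fell. With single animals left out the number was as low as 1 (without 3HF202 or 3RC203), 2 (without 3HF203 or 3RC201) and 3 (without 3HF201). It was 14 without 3HF224. Over all genes, 766 fell without 3HF202, 422 without 3RC203, 393 without 3HF203, 490 without 3RC201, 517 without 3HF201 and 1320 without 3HF224. Tm7sf2 alone of the 9 was called in all 8 fits without 1 animal.

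Among 14 genes of sterol uptake and sensing 1 fell. It was Srebf2, which encodes SREBP2, with 5.65, 5.32, 5.59 and 5.20 log2 CPM on HFD, against 6.16, 6.41, 6.53 and 5.65 on RC (-0.75 ± 0.17, adjusted p = 0.00226). Here 3HF224 was the lowest HFD animal, unlike in the enzymes, and 3RC251 touched the highest HFD value. The sterol element core CACCCCAC, searched on both strands, was found in the promoters of 2 of the 15 enzymes with a promoter in the RefSeq table (13.3%, Hmgcs1 and Acat2), against 3.78% of 9671 tested genes. Lists outside sterol synthesis had like shares, such as 3 of 22 genes of the unfolded protein response and 3 of 22 of the P450 list (13.6% each). The P450 list also holds regulators, and Nr1i3 is 1 of those 3.

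Fatty acid synthesis and desaturation genes had a negative median (-0.38), yet 2 of 19 fell and 0 rose. Elovl3 (ENSMUSG00000038754, chromosome 19, 46131897 to 46135694), an elongase of long saturated and monounsaturated chains, had 3.90, 4.70, 2.55 and 7.80 log2 CPM on HFD, against 8.18, 8.97, 8.72 and 7.99 on RC. 3HF224 was just under the lowest RC animal and the other HFD animals were at least 3 log2 units lower. Its mean level was 13.3-fold lower (-3.73 ± 0.78, adjusted p = 0.000913). Slc25a1, the citrate carrier that exports carbon for lipid synthesis, fell by 0.44 (SE 0.13, adjusted p = 0.0184), a call lost in 4 of the 8 fits without 1 animal (highest adjusted p = 0.137, without 3HF203).

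The desaturase Scd1 showed the widest split, with 9.53, 9.95, 9.14 and 13.98 log2 CPM on HFD, against 13.09, 12.83, 12.71 and 11.65 on RC. 3HF201, 3HF202 and 3HF203 were below, and 3HF224 above, every RC animal. It was not called with all animals (-1.92 ± 0.69, adjusted p = 0.0555) and was called without 3HF224 and 3RC251 (-3.33, adjusted p = 0.00036). Fasn, the fatty acid synthase, had 9.0, 8.66, 5.59 and 10.05 on HFD, against 8.79, 8.17, 8.12 and 8.84 on RC (adjusted p = 0.892). Over the list, the median member was at -0.86, -0.40, -1.37 and 1.08 in the HFD animals, against 0.33, -0.16, 0.14 and -0.15 in the RC animals, and 9 of 19 fell without 3HF224 and 3RC251. None of 8 pentose phosphate genes was called by limma (1 at an unadjusted p under 0.05, and 0 called by voom).

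Triglyceride synthesis held 3 genes that fell of 11 and 0 that rose (median -0.31). Lpin1 (ENSMUSG00000020593, chromosome 12, 16535669 to 16610966), a phosphatidate phosphatase that also acts in the nucleus, had 3.91, 4.32, 4.12 and 7.33 log2 CPM on HFD, against 7.73, 8.47, 8.32 and 7.21 on RC. 3HF201, 3HF202 and 3HF203 lay more than 2 log2 units below every RC animal, and 3HF224 just above the lowest RC animal. The mean was 8.06-fold lower (-3.01 ± 0.68, adjusted p = 0.0022). Its relative Lpin2 fell by 1.17 (SE 0.33, adjusted p = 0.0151), with a call lost in 3 of the 8 fits without 1 animal (highest adjusted p = 0.121, without 3RC203). Dgat2, which makes the final acyl transfer, fell by 0.59 (SE 0.15, adjusted p = 0.0048).

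Lipoprotein genes moved in both directions, with 2 that rose and 5 that fell of 19 (median -0.10). Angptl8 (ENSMUSG00000047822, chromosome 9, 21835510 to 21837347), a feeding-induced secreted protein that inhibits lipoprotein lipase, had 5.82, 5.23, 5.52 and 5.82 log2 CPM on HFD, against 2.40, 4.24, 2.71 and 5.07 on RC. The HFD animals were tightly grouped and all above 3RC251, the highest RC animal. The mean was 3.98-fold higher (1.99 ± 0.54, adjusted p = 0.00982), not called in 2 of the 8 fits without 1 animal (highest adjusted p = 0.0728, without 3RC201). Lipc, hepatic lipase, had 6.95, 7.19, 6.47 and 6.87 on HFD, against 7.69, 7.48, 7.54 and 7.40 on RC (-0.66 ± 0.10, adjusted p = 5.1e-06). Apoa1, the main protein of HDL, had 12.76, 12.66, 13.09 and 12.57 on HFD, against 13.55, 13.47, 13.60 and 12.97 on RC (-0.63 ± 0.16, adjusted p = 0.00595).

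Pltp, the phospholipid transfer protein, fell by 1.70 (SE 0.58, adjusted p = 0.044), and Tm6sf2, a factor in the lipidation of secreted lipoproteins, rose by 0.71 (SE 0.21, adjusted p = 0.0196). Their calls were lost in 6 and 4 of the 8 fits without 1 animal, with highest adjusted p of 0.151 and 0.112, both without 3HF203.

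**Figure D2:**
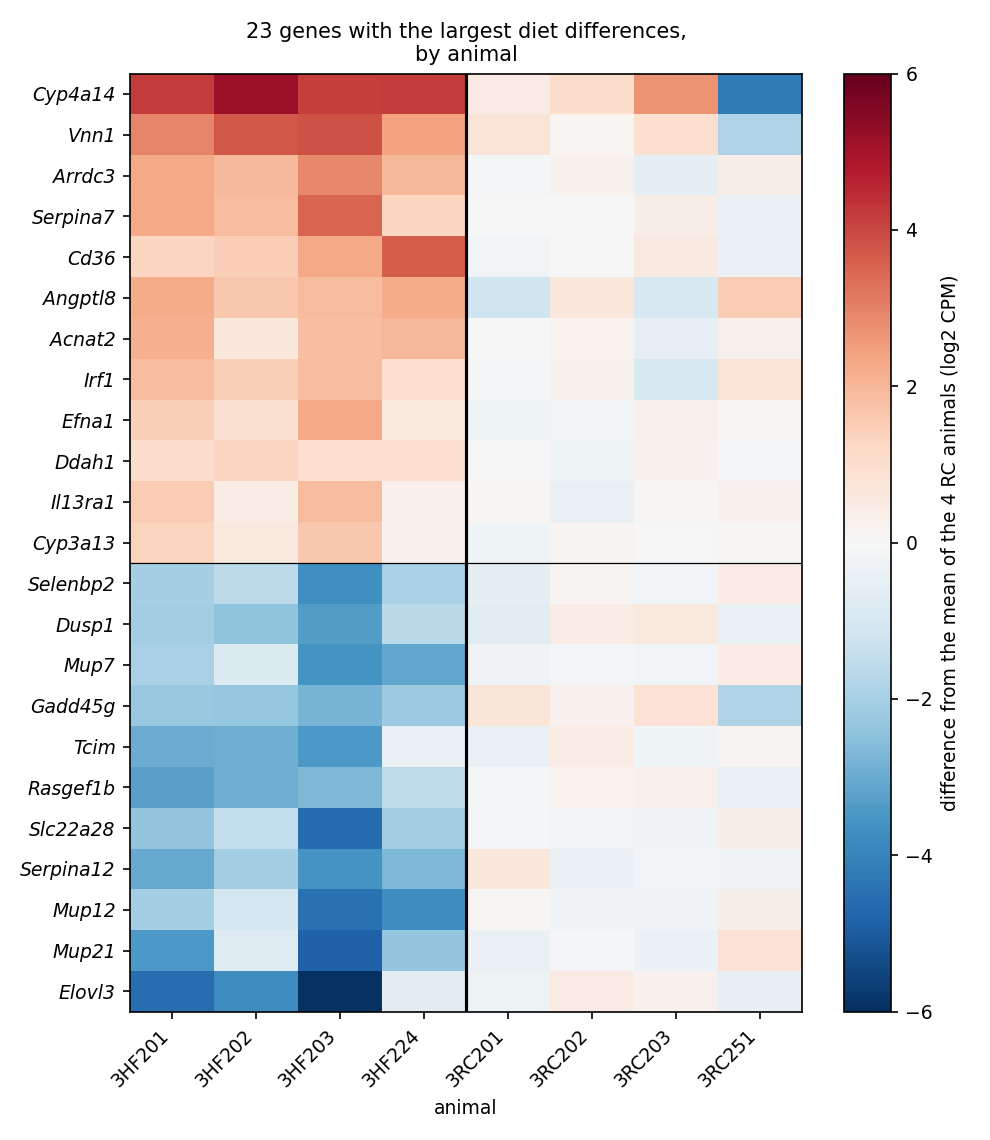
Difference from the mean of the 4 RC animals (log2 CPM, colour) for the 12 genes with the highest and 11 of the 12 with the lowest log2 fold change among called genes above median level whose groups do not overlap, by animal. The HFD animals stand on the left. 3HF203 is the darkest of the HFD animals for Slc22a28 and Mup12, and 3HF224 the palest for Elovl3 and Tcim.

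Drug and steroid metabolism held the clearest falls. Ces2a (ENSMUSG00000055730, chromosome 8, 104734003 to 104741634), a carboxylesterase that cleaves esters of drugs and lipids, had 6.90, 7.43, 6.35 and 6.83 log2 CPM on HFD, against 8.62, 8.89, 8.71 and 8.70 on RC. The lowest RC animal was more than 1 log2 unit above the highest HFD animal. The mean was 3.61-fold lower (-1.85 ± 0.15, adjusted p = 1.84e-13). Its relative Ces3b had 7.61, 7.87, 7.45 and 6.86 on HFD, against 8.94, 9.09, 8.91 and 9.28 on RC (-1.61 ± 0.18, adjusted p = 3.73e-09). Ces3a had 10.71, 11.21, 10.28 and 10.65 on HFD, against 11.61, 11.63, 11.63 and 11.52 on RC (-0.88 ± 0.12, adjusted p = 5e-07). Both groups were again separate, with little spread on RC.

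Of 34 conjugation enzymes and carboxylesterases 11 fell and 1 rose (median -0.67). The fallers were 7 carboxylesterases (Ces1c, Ces1e, Ces1g, Ces2a, Ces2c, Ces2e and Ces3a), Ugt2b1, Sult5a1, Gstm2 and Gstm6. Ugt2b1, a glucuronosyltransferase, had 8.68, 9.45, 7.74 and 9.53 log2 CPM on HFD, against 9.99, 10.29, 10.07 and 10.62 on RC (-1.39 ± 0.21, adjusted p = 5.1e-06). Gstm2, a glutathione transferase, had 4.47, 5.20, 4.19 and 8.05 on HFD, against 6.96, 6.79, 6.88 and 6.74 on RC, so that 3HF224 was above every RC animal and the others below. Its fall of 1.37 (SE 0.39, adjusted p = 0.014) was not called without 3HF201 or 3HF203 (highest adjusted p = 0.146, without 3HF203). Nqo1, a quinone reductase and textbook NRF2 target, rose with 2.45, 3.05, 2.67 and 3.32 on HFD, against 1.32, 1.42, 2.06 and 1.56 on RC (1.28 ± 0.38, adjusted p = 0.0184, and 0.0619 without 3RC201). The median member was at -0.83, -0.37, -1.28 and 0.26 in the HFD animals, against 0.00, 0.00, -0.02 and -0.03 in the RC animals. Without 3HF203 the list had 7 members that fell, and without 3HF224 and 3RC251 it had 19.

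The list of cytochromes P450 and their regulators split into a group that fell and a group that rose, 7 and 4 of 23 (median -0.44). Cyp3a11 (ENSMUSG00000056035, chromosome 5, 145854426 to 145879964), the main drug-oxidising Cyp3a of mouse liver, had 9.61, 10.80, 8.99 and 12.05 log2 CPM on HFD, against 12.26, 12.81, 12.48 and 12.88 on RC (4.74-fold lower, -2.24 ± 0.33, adjusted p = 3.51e-06). 3HF224 came within reach of the RC animals without overlapping them. Cyp1a2, which oxidises caffeine and aromatic amines, had 7.97, 9.07, 6.96 and 8.51 on HFD, against 9.44, 9.62, 9.66 and 9.72 on RC (-1.48 ± 0.29, adjusted p = 0.000358). Nr1i2, the pregnane X receptor that drives Cyp3a genes, fell by 0.74 (SE 0.19, adjusted p = 0.00641), with a call lost without 3HF203 or 3RC203 (highest adjusted p = 0.0606). The other members that fell were Cyp2c29, Cyp2c50, Cyp2c55 and Cyp3a41a, by 0.89 to 2.29. Each of the 4 had an adjusted p over 0.05 without 3HF203, from 0.0501 for Cyp2c55 to 0.104 for Cyp2c50, and 2 of the 23 genes fell there.

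The P450 genes that rose were Cyp2b9, Cyp2a4, Cyp2b13 and Cyp3a13, the first 3 of which are female-biased in mouse liver. Cyp2b9 (ENSMUSG00000040660, chromosome 7, 26173411 to 26210661) had 6.44, 4.76, 5.46 and 6.97 log2 CPM on HFD, against 0.96, 1.60, 1.48 and 2.28 on RC. Every HFD animal was more than 2 log2 units above every RC animal, and the mean was 20.1-fold higher (4.33 ± 1.14, adjusted p = 0.00817). Cyp2a4 had 5.96, 6.30, 4.73 and 8.41 on HFD, against 2.96, 3.01, 2.73 and 0.75 on RC (3.99 ± 0.96, adjusted p = 0.00377, and 0.056 without 3HF224 and 3RC251). Cyp2b13 stood under 1 CPM in every RC animal, with 1.94, -0.04, 0.70 and 1.31 on HFD, against -2.29, -1.86, -0.79 and -0.78 on RC, and its call (adjusted p = 0.0352) was lost in 6 of the 8 fits without 1 animal. These families hold near-identical copies, and reads may be split among them.

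Of 14 major urinary and sex-dimorphic genes 8 fell and 1, Cyp2b9, rose (median -1.08). Mup21 (ENSMUSG00000066153, chromosome 4, 62147932 to 62150863), a major urinary protein, had 5.10, 7.77, 3.67 and 6.17 log2 CPM on HFD, against 8.13, 8.43, 8.19 and 9.39 on RC (7.24-fold lower, -2.86 ± 0.48, adjusted p = 3.34e-05). Mup12 had 8.05, 9.02, 5.61 and 6.35 on HFD, against 10.15, 9.88, 9.89 and 10.47 on RC (-2.84 ± 0.43, adjusted p = 8.87e-06). Mup7 had 7.41, 8.50, 5.77 and 6.26 on HFD, against 9.17, 9.27, 9.21 and 9.86 on RC (-2.39 ± 0.42, adjusted p = 8.56e-05). In these genes 3HF202 was the highest and 3HF203 the lowest HFD animal, and no HFD animal reached the RC range. Copies of the Mup cluster share most of their sequence, so the split of reads between them is uncertain.

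Slco1a1, a male-biased organic anion transporter, had 7.94, 8.92, 7.01 and 8.46 log2 CPM on HFD, against 9.42, 9.65, 9.52 and 9.63 on RC (2.78-fold lower, -1.47 ± 0.19, adjusted p = 1.02e-07). Hsd3b5, a hydroxysteroid dehydrogenase, had 4.92, 6.75, 2.35 and 2.02 on HFD, against 6.16, 5.96, 6.40 and 7.42 on RC (-2.48 ± 0.50, adjusted p = 0.000559), and 3HF202 lay inside the RC range. Ghr, the growth hormone receptor, fell with 8.63, 9.02, 8.0 and 9.41 on HFD, against 9.62, 9.62, 9.69 and 9.65 on RC (-0.88 ± 0.14, adjusted p = 1.63e-05). The list count moved little with the animals, from 7 to 8 members that fell in the 8 fits without 1 animal.

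Bile acid genes fell in 8 of 24 cases and rose in 0 (median -0.24). Cyp27a1 (ENSMUSG00000026170, chromosome 1, 74713574 to 74737892), the mitochondrial sterol hydroxylase of the alternative synthesis route, had 8.57, 8.54, 8.60 and 8.42 log2 CPM on HFD, against 9.43, 9.47, 9.45 and 9.12 on RC (1.78-fold lower, -0.83 ± 0.11, adjusted p = 6.14e-07). Cyp7b1, the next enzyme of that route, had 6.67, 7.50, 5.91 and 6.13 on HFD, against 7.76, 8.07, 7.97 and 8.59 on RC (-1.55 ± 0.38, adjusted p = 0.00507). Both genes had separate groups. Cyp7a1, the rate-limiting enzyme of the classical route, scattered in both groups with 6.57, 8.0, 6.12 and 8.07 on HFD, against 4.57, 6.47, 3.37 and 8.71 on RC, and did not pass (1.41 ± 0.76, adjusted p = 0.218).

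Cyp8b1, which sets the share of cholic acid, fell by 1.15 (SE 0.31, adjusted p = 0.0108), and the bile acid importer Slc10a1 by 0.43 (SE 0.13, adjusted p = 0.0229). Those 2 calls were lost in 2 and 3 of the 8 fits without 1 animal, with highest adjusted p of 0.0789 (without 3HF201) and 0.127 (without 3HF203). Slco1a4, another organic anion transporter, fell by 1.80 (SE 0.40, adjusted p = 0.00178).

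Glucose production and glycolysis genes fell in 8 of 25 cases and rose in 0 (median -0.34). Pck1 (ENSMUSG00000027513, chromosome 2, 173153048 to 173159273), the cytosolic PEPCK that commits carbon to glucose, had 10.52, 10.05, 10.44 and 11.27 log2 CPM on HFD, against 12.73, 12.49, 12.72 and 11.64 on RC. 3HF224 and 3RC251 came nearest to each other without overlap. The mean was 3.55-fold lower (-1.83 ± 0.33, adjusted p = 0.000123). Foxo1, the insulin-restrained transcription factor of glucose output, had 5.32, 5.57, 5.31 and 5.23 on HFD, against 6.61, 6.56, 6.80 and 5.76 on RC (-1.07 ± 0.24, adjusted p = 0.00227). Pklr, the liver pyruvate kinase, which runs the opposite way, fell too, with 7.98, 7.75, 6.50 and 8.56 on HFD, against 9.04, 8.70, 8.86 and 9.17 on RC (-1.24 ± 0.28, adjusted p = 0.00196).

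G6pc, glucose-6-phosphatase, had 8.09, 8.57, 6.21 and 9.64 log2 CPM on HFD, against 9.51, 9.32, 9.74 and 9.67 on RC, and its fall of 1.43 (SE 0.40, adjusted p = 0.0126) was not called without 3HF203 (adjusted p = 0.204). Pfkfb3, which sets fructose 2,6-bisphosphate, fell by 2.21 (SE 0.53, adjusted p = 0.0036). Ppp1r3c, a glycogen-targeting phosphatase subunit, had 5.74, 5.71, 5.37 and 5.82 on HFD, against 7.06, 8.20, 7.11 and 6.76 on RC (-1.62 ± 0.52, adjusted p = 0.0297), and Ppp1r3g, another such subunit, fell by 2.74 (SE 0.78, adjusted p = 0.0148). The calls of these 2 subunits were lost in 5 and 4 of the 8 fits without 1 animal (highest adjusted p = 0.124 and 0.138). The list had 4 members that fell without 3HF203, and 14 without 3HF224 and 3RC251. The median member was at -0.47, -0.31, -0.92 and 0.03 in the HFD animals, against 0.10, 0.03, -0.01 and -0.11 in the RC animals. For the list as a whole 3HF224 thus lay near the RC mean.

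Amino acid breakdown and the urea cycle gave 9 falls and 1 rise of 30 (median -0.31). Tat (ENSMUSG00000001670, chromosome 8, 109990437 to 109999803), the glucocorticoid-inducible tyrosine aminotransferase, had 9.91, 9.69, 9.43 and 11.50 log2 CPM on HFD, against 12.30, 12.09, 12.89 and 11.17 on RC (3.93-fold lower, -1.97 ± 0.43, adjusted p = 0.00159). 3HF224 was above 3RC251, and the other HFD animals were far below the other RC animals. Bhmt, which remethylates homocysteine, had 9.20, 9.23, 9.84 and 11.08 on HFD, against 11.28, 11.53, 11.07 and 11.27 on RC (-1.45 ± 0.39, adjusted p = 0.00977, and 0.0535 without 3HF201). The urea cycle enzymes Ass1 and Asl fell by 0.68 and 0.60 (SE 0.22 and 0.20, adjusted p = 0.0358 and 0.0385), with calls lost in 4 and 5 of the 8 fits without 1 animal. Nags, which makes the activator of the cycle, rose by 0.32 (SE 0.09, adjusted p = 0.0144). The list had as few as 2 members that fell, without 3HF203 or 3RC201, and 15 without 3HF224 and 3RC251.

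Of 20 glucocorticoid-induced and early stress genes 9 fell and 2 rose (median -0.87). Dusp1 (ENSMUSG00000024190, chromosome 17, 26505590 to 26562128), a phosphatase of MAP kinases induced by glucocorticoid and by growth signals, had 5.32, 5.02, 4.06 and 5.79 log2 CPM on HFD, against 6.79, 7.85, 8.01 and 7.0 on RC. All HFD animals were about 1 log2 unit or more below the lowest RC animal. The mean was 5.16-fold lower (-2.37 ± 0.41, adjusted p = 5.87e-05). Per1 (ENSMUSG00000020893, chromosome 11, 69095217 to 69109960), a clock repressor that glucocorticoid also induces, had 3.06, 3.60, 3.69 and 4.24 on HFD, against 5.15, 5.47, 5.58 and 5.05 on RC (3.17-fold lower, -1.66 ± 0.38, adjusted p = 0.00225). The RC animals lay close together, above all HFD animals.

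The promoters of these 2 genes are shown because both fell together and both hold an E-box, the CACGTG element bound by clock activators and other bHLH factors. They run from 250 bases before to 50 bases after the gene start in RefSeq (build GRCm38.p6), 5′ to 3′ on the gene's strand, at chr17:26508423-26508722 on the minus strand for Dusp1 and chr11:69098699-69098998 on the plus strand for Per1. Capitals mark the E-box, which starts 126 bases before the start of Dusp1 and 166 before that of Per1, and in Dusp1 also a CACCCCAC run 82 bases before the start.
Dusp1 promoter: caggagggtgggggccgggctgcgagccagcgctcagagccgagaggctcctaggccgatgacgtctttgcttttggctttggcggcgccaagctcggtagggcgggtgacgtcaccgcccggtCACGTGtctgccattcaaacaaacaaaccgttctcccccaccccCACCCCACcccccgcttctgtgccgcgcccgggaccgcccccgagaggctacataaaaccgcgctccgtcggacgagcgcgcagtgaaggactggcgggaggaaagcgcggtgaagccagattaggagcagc
Per1 promoter: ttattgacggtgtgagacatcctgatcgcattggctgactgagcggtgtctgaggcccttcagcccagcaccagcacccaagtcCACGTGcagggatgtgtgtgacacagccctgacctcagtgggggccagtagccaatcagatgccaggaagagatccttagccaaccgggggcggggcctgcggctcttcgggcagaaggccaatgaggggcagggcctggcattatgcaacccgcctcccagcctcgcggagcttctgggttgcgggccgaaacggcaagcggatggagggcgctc
The second Per1 start in the table held none of the motifs searched. An E-box was found in 5 of 16 promoters of this stress list (31.2%, Dusp1, Fkbp5, Gadd45b, Gadd45g and Sgk1) and in 6 of 18 of the clock list (33.3%), against 11.7% of 9671 tested genes. These lists were not alone in this, as 7 of 20 promoters of the glucose list and 3 of 10 of the sterol uptake list held one. The match is a description of letters, not of binding.

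The 3 Gadd45 genes, which respond to growth arrest and DNA damage, did not move together. Gadd45a rose, with 2.80, 2.06, 3.13 and 1.75 log2 CPM on HFD, against 0.32, 0.16, 0.38 and 0.41 on RC (4.34-fold, 2.12 ± 0.46, adjusted p = 0.00142). Gadd45b had 1.08, 1.46, 1.18 and 0.80 on HFD, against 3.06, 4.16, 4.67 and 2.15 on RC (-2.38 ± 0.69, adjusted p = 0.0168). Gadd45g had 3.97, 3.91, 3.45 and 4.05 on HFD, against 6.96, 6.48, 7.09 and 4.43 on RC (-2.40 ± 0.77, adjusted p = 0.0305). The groups were separate in all 3 genes, and 3RC251 was the RC animal nearest to HFD in both genes that fell. Their calls were lost in 2 and 5 of the 8 fits without 1 animal (highest adjusted p = 0.0943 for Gadd45b and 0.116 for Gadd45g, both without 3RC203).

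Sgk1, a kinase of salt transport induced by glucocorticoid, had 2.98, 3.39, 2.70 and 5.07 log2 CPM on HFD, against 5.23, 5.18, 6.25 and 4.45 on RC (-1.74 ± 0.38, adjusted p = 0.00141). Zbtb16, a glucocorticoid-induced repressor, had 0.46, 1.24, 0.80 and 4.70 on HFD, against 5.17, 5.47, 5.67 and 2.44 on RC (-2.88 ± 0.85, adjusted p = 0.0192). In both, 3HF224 was above 3RC251 while the other animals stayed apart. The cell cycle inhibitor Cdkn1a spread most, with 0.27, 0.74, 4.61 and 5.46 on HFD, against 6.84, 7.24, 7.79 and 3.95 on RC (-3.69 ± 1.26, adjusted p = 0.0436). Tsc22d3 (GILZ) fell by 1.51 (adjusted p = 0.0142) and Igfbp1, which binds insulin-like growth factors, by 2.06 (adjusted p = 0.0283). Zbtb16, Cdkn1a and Igfbp1 lost the call in 5 of the 8 fits without 1 animal and Tsc22d3 in 2, with highest adjusted p of 0.0844, 0.178, 0.172 and 0.12. The number of members that fell was 4 without 3RC202 or 3RC203, 5 without 3HF201, 3HF203 or 3RC201, and 9 without 3HF224 and 3RC251.

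Core clock genes other than Per1 gave little. Of 22, 3 fell (Per1, Hlf and Rora) and 0 rose (median -0.31). Nr1d1, the repressor REV-ERB alpha, had 5.42, 5.55, 6.14 and 2.87 log2 CPM on HFD, against 4.12, 2.72, 3.72 and 2.80 on RC (adjusted p = 0.212). Dbp, a clock output gene with a steep daily rhythm, had 6.42, 6.53, 6.59 and 4.22 on HFD, against 6.09, 4.34, 5.45 and 4.36 on RC (adjusted p = 0.723). In both genes 3HF201, 3HF202 and 3HF203 were high, and 3HF224 stood with the lower RC animals. The hour of sampling, which many stress and clock genes follow, was not tested. Hlf and Rora fell by 0.65 and 0.74 (adjusted p = 0.0123 and 0.0148) and were not called in 3 and 2 of the 8 fits without 1 animal (highest adjusted p = 0.0951 without 3HF203 and 0.0934 without 3RC203).

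**Figure D3:**
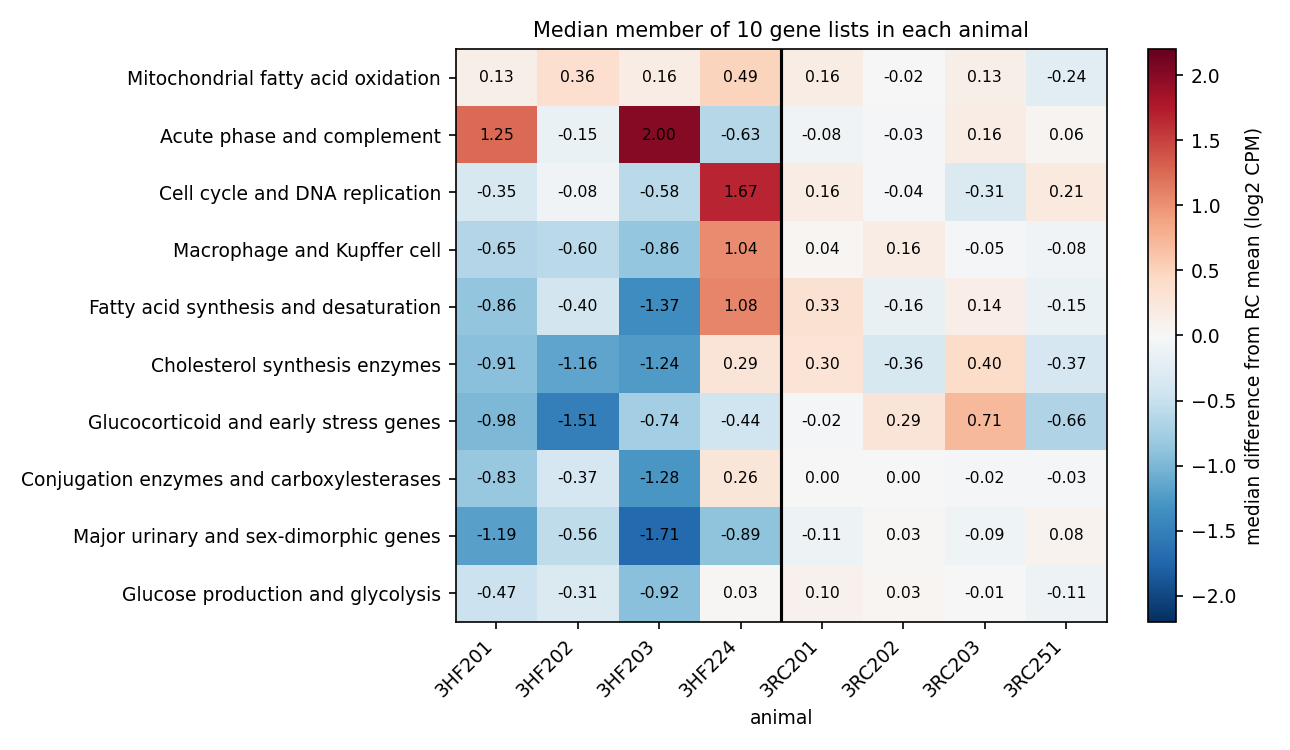
Median member of 10 gene lists in each animal, as the difference from the mean of the 4 RC animals (log2 CPM, colour and printed value). 3HF201 and 3HF203 stand out in the acute phase list at 1.25 and 2.00, and 3HF224 has the opposite sign to the other HFD animals in cell cycle, macrophage, fatty acid synthesis, cholesterol and conjugation lists.

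Among single regulators and secreted proteins, Errfi1, a feedback inhibitor of the EGF receptor, had 8.53, 7.56, 8.83 and 9.85 log2 CPM on HFD, against 10.58, 10.64, 10.80 and 10.31 on RC (-1.89 ± 0.23, adjusted p = 4.33e-08). Serpina12 (vaspin) had 3.02, 3.95, 2.49 and 3.33 on HFD, against 6.72, 5.70, 5.86 and 5.84 on RC (-2.83 ± 0.45, adjusted p = 1.76e-05).

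Rasgef1b, a Ras exchange factor, had 1.71, 2.02, 2.25 and 3.46 log2 CPM on HFD, against 4.89, 5.15, 5.28 and 4.50 on RC (-2.60 ± 0.38, adjusted p = 5.1e-06). Slc22a28, of the organic anion transporter family, had 1.73, 2.64, -0.52 and 2.00 on HFD, against 4.05, 3.95, 3.90 and 4.51 on RC (-2.64 ± 0.31, adjusted p = 1.77e-08). Tcim and Selenbp2 fell by 2.45 and 2.30 (adjusted p = 0.000396 and 0.00377). In each of these 4 genes the groups were separate, with the nearest approach in Tcim, where 3HF224 had 5.80 and 3RC201 had 5.83.

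Arrdc3 (ENSMUSG00000074794, chromosome 13, 80883384 to 80896042), an arrestin-like adaptor of receptor turnover, rose, with 6.94, 6.64, 7.57 and 6.70 log2 CPM on HFD, against 4.56, 4.94, 4.13 and 5.10 on RC (4.86-fold, 2.28 ± 0.50, adjusted p = 0.0015). Serpina7, thyroxine-binding globulin, had 6.69, 6.36, 7.91 and 5.75 on HFD, against 4.43, 4.45, 4.84 and 4.03 on RC (2.24 ± 0.47, adjusted p = 0.00107). Ddah1, which degrades an inhibitor of nitric oxide synthesis, had 6.43, 6.66, 6.35 and 6.36 on HFD, against 5.43, 5.12, 5.65 and 5.33 on RC (1.07 ± 0.23, adjusted p = 0.00142). The groups were separate in all 3, and the HFD animals lay closest together in Ddah1. Also among the 12 largest log2 fold changes of called genes above median level with separate groups were Acnat2, Efna1, Il13ra1, Irf1 and Cyp3a13, with log2 fold changes of 1.66, 1.30, 1.06, 1.53 and 0.96 (adjusted p = 0.0123, 0.00276, 0.000629, 0.000289 and 0.000629). Acnat2 alone of these 5 lost its call, in 1 of the 8 fits without 1 animal (adjusted p = 0.0596, without 3RC203).

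Acute phase proteins were high in 2 of the 4 HFD livers. Of 29 acute phase and complement genes 8 rose (Saa2, Orm2, Il1rn, Apcs, Steap4, Hp, Fgg and Hpx) and 4 fell (Serpina3k, Serpina3m, C2 and C9), with a median of 0.66. Saa2 (ENSMUSG00000057465, chromosome 7, 46751790 to 46754313), serum amyloid A, had 10.34, 5.42, 12.37 and 4.27 log2 CPM on HFD, against 3.77, 4.27, 4.67 and 4.45 on RC (3.81 ± 1.25, adjusted p = 0.0358). 3HF203 was over 7 log2 units above the RC animals, 3HF201 over 5, and 3HF224 was level with RC. Orm2, an acid glycoprotein, had 8.0, 3.55, 8.90 and 3.46 on HFD, against 2.39, 2.95, 3.50 and 3.24 on RC (2.96 ± 0.76, adjusted p = 0.00674). Hp, haptoglobin, had 13.53, 12.09, 14.23 and 11.39 on HFD, against 11.94, 12.04, 12.13 and 11.48 on RC (0.91 ± 0.32, adjusted p = 0.0468). Lcn2, which binds bacterial siderophores and was counted in the stress list, had 9.49, 5.47, 10.95 and 5.59 on HFD, against 5.22, 5.28, 5.75 and 4.57 on RC (2.67 ± 0.93, adjusted p = 0.0473).

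Without 3HF201 no acute phase member was called higher by limma (8 at an unadjusted p under 0.05), and likewise without 3HF203 (2 at an unadjusted p under 0.05). The number was 2, 1 and 3 without 3RC201, 3RC202 and 3RC203, 5 without 3RC251, 14 without 3HF202 and 18 without 3HF224, and limma's voom called 6 with all animals. The median member stood at 1.25, -0.15, 2.00 and -0.63 in the HFD animals, against -0.08, -0.03, 0.16 and 0.06 in the RC animals, so 3HF201 and 3HF203 were high and 3HF202 and 3HF224 were not. The falls of Serpina3k (-0.82 ± 0.18, adjusted p = 0.00159) and the complement protease C2 (-0.63 ± 0.13, adjusted p = 0.00107) ran through all 4 HFD animals. C2 had 4.86, 4.47, 4.82 and 4.71 on HFD, against 5.30, 5.38, 5.40 and 5.26 on RC. Serpina3 genes are a family of near-identical copies. Beside the acute phase values, the level of Mup21, Slc22a28 and Cyp3a11 was lowest in 3HF203 among the 8 livers; what part one has in the other was not tested.

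Of 26 interferon-stimulated genes 3 rose (Irf9 and Psmb9 among them) and 1 fell (Irf7), with a median of 0.06. Without 3RC251, 9 rose, and without 3HF203, 1 did, in fits where 1126 and 382 of all 12611 genes rose. Irf1, which is not in that list, had 4.93, 4.51, 4.91 and 4.06 log2 CPM on HFD, against 3.01, 3.32, 2.10 and 3.86 on RC. Irf9, Psmb9 and Irf7 lost the call in 2, 3 and 5 of the 8 fits without 1 animal.

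Secreted hormones and their receptors gave 5 falls of 24 and 0 rises (median -0.31): Ghr, Igf1, Igfbp1, Gdf15 and Angptl4. Gdf15, a stress hormone that curbs appetite, had 2.12, 1.52, 3.46 and 1.53 log2 CPM on HFD, against 3.89, 3.85, 6.00 and 3.39 on RC (-2.12 ± 0.69, adjusted p = 0.0334). 3HF203 just passed 3RC251, the lowest RC animal. Igf1, the growth hormone effector, fell by 0.39 (SE 0.12, adjusted p = 0.0278). Both calls were lost in 5 of the 8 fits without 1 animal (highest adjusted p = 0.201 without 3RC203 and 0.127 without 3HF202).

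Other lists stayed at or below the background shares of 6.26% and 6.22%. In the unfolded protein response 1 of 25 rose (Atf4) and 1 fell (Herpud1). Herpud1, of endoplasmic reticulum protein disposal, had 8.0, 8.03, 8.57 and 8.54 log2 CPM on HFD, against 9.51, 9.64, 9.83 and 9.13 on RC (-1.24 ± 0.32, adjusted p = 0.00603). The electron transport chain had 1 fall, Sdha, of 22. Cell cycle genes had 1 rise, Mcm2, of 16, and the proliferation marker Mki67 stood at -1.10, -1.48, -0.90 and 3.23 on HFD, against 0.23, 0.16, -0.17 and -0.49 on RC (adjusted p = 0.999). 3HF224 was the highest liver for Mki67 by a wide margin, and the other HFD animals were below every RC animal. Atf4, Sdha and Mcm2 lost the call in 4, 5 and 5 of the 8 fits without 1 animal.

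**Figure D4:**
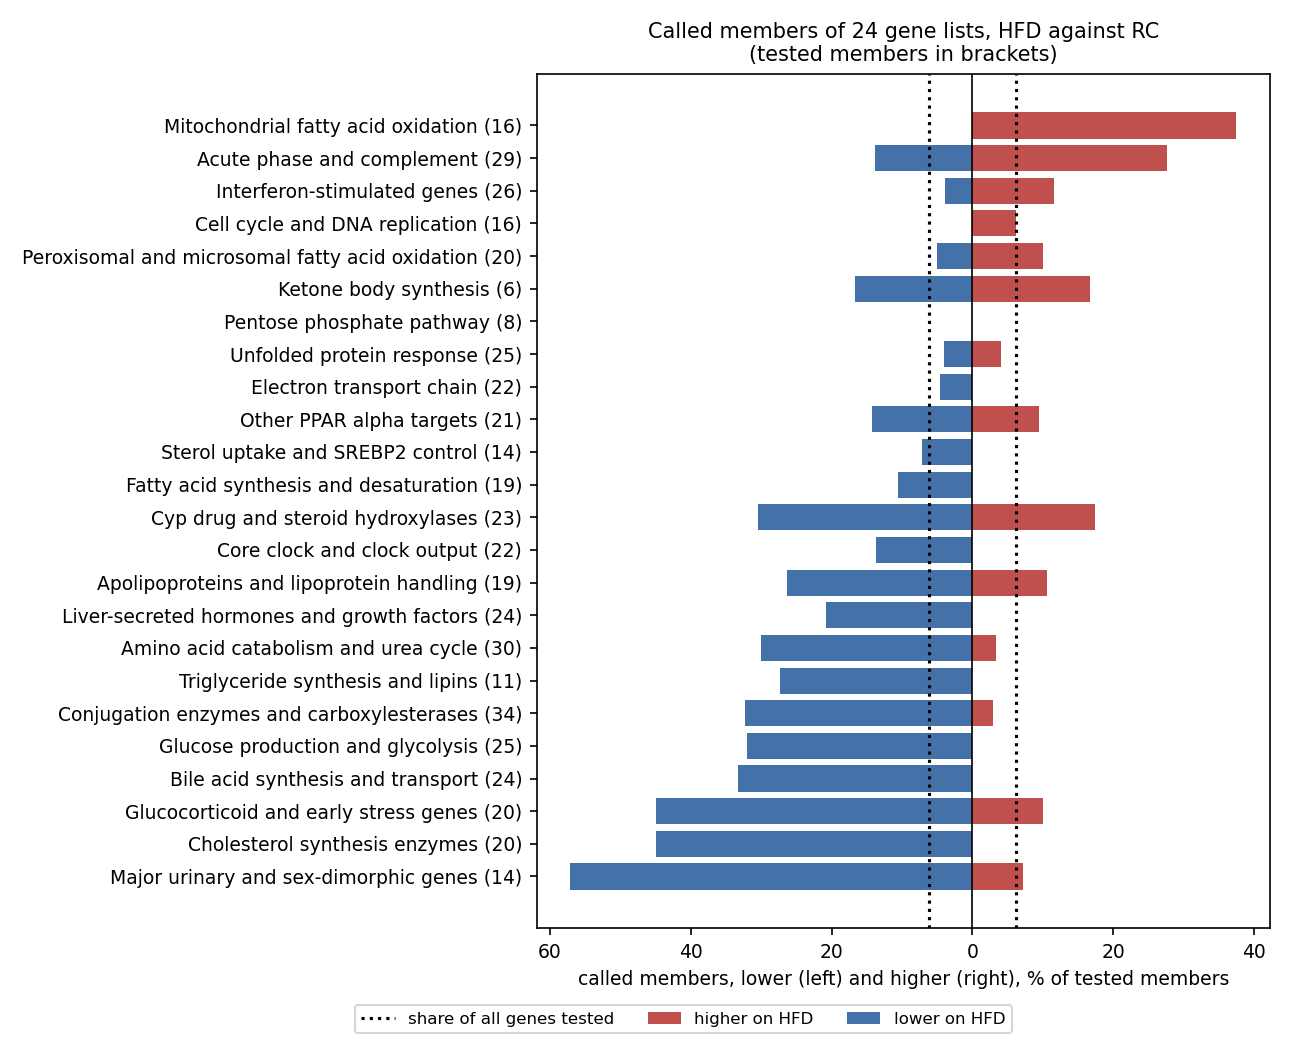
Share of tested members called lower (left) and higher (right) on HFD in 24 gene lists, as a percentage, with the number of tested members in brackets. Dotted lines are the shares of all 12611 genes, 6.22% lower and 6.26% higher. Major urinary, cholesterol and stress lists reach farthest to the left, mitochondrial fatty acid oxidation and acute phase lists farthest to the right.

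Marker genes of liver cell types were read beside these results. Hepatocyte markers, led by albumin, summed to 74577 to 122630 CPM on HFD and 103950 to 136240 CPM on RC, and 4 of 10 fell (Tat, Serpina1c, Apoa1 and Ttr). Alb had 15.73, 15.94, 15.49 and 16.46 log2 CPM on HFD, against 16.44, 16.44, 16.32 and 16.03 on RC (adjusted p = 0.123). Of 13 macrophage and Kupffer cell markers limma called 0 (2 at an unadjusted p under 0.05, and 0 called by voom), with sums of 106 to 381 CPM on HFD and 175 to 215 CPM on RC. Clec4f, the Kupffer cell lectin, had 4.79, 4.89, 4.30 and 6.57 on HFD, against 5.61, 5.72, 5.35 and 5.46 on RC, so 3HF224 was above and the other HFD animals below RC. Without 3HF224, 6 macrophage markers fell, in a fit where 1320 of all 12611 genes fell.

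Endothelial markers fell in 2 of 10 cases (Stab1 and Oit3; 47.5 to 130 CPM on HFD, 91.5 to 129 CPM on RC), with 0 without 3HF201, 3HF203 or 3RC202, and 9 without 3HF224. Stellate and fibroblast markers fell in 3 of 11 cases (Reln, Col1a2 and Col3a1; 109 to 486 CPM on HFD, 243 to 354 CPM on RC), with 0 without 3HF203 or 3RC201, and 6 without 3HF224. Cholangiocyte markers (6 tested, at most 68.2 CPM in any liver), lymphocyte markers (4 tested, 11.8 to 23.2 on HFD, 18.2 to 24.3 on RC) and the 1 tested neutrophil marker (0.396 to 1.10 on HFD, 0.398 to 0.765 on RC) had 0 calls by limma, 0 at an unadjusted p under 0.05 and 0 by voom. The 1 tested acinar marker fell (6.87 to 11.8 CPM on HFD, 13.2 to 22.8 on RC).

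Erythroid genes summed to 131 to 302 CPM on HFD and 492 to 1328 CPM on RC, with no overlap, and 2 of 5 fell. Alas2 (ENSMUSG00000025270, chromosome X, 150547375 to 150570638), the erythroid first enzyme of haem synthesis, had 6.53, 7.18, 5.75 and 6.97 log2 CPM on HFD, against 8.20, 8.31, 8.24 and 8.34 on RC (3.16-fold lower, -1.66 ± 0.18, adjusted p = 1.61e-09). The RC animals lay close together and far above every HFD animal. Haemoglobin Hba-a1 did not share that evenness, with 5.46, 4.35, 4.10 and 5.21 on HFD, against 6.24, 5.63, 7.90 and 5.34 on RC (-1.50 ± 0.46, adjusted p = 0.0248), and its call was lost in 4 of the 8 fits without 1 animal (highest adjusted p = 0.228, without 3RC203). Haemoglobin copies are near-identical.

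The summed adipocyte list (196 to 4843 CPM on HFD, 5779 to 7097 CPM on RC) was almost entirely Car3, which hepatocytes also express. Of 7 tested members 5 had a positive and 2 a negative log2 fold change (median 0.82), and only Car3 was called. The median member stood at 2.33, 4.06, 0.58 and -0.67 in the HFD animals, against -0.05, -0.06, -0.10 and 0.90 in the RC animals. Car3, carbonic anhydrase 3, had 10.36, 11.96, 7.18 and 12.23 log2 CPM on HFD, against 12.54, 12.54, 12.49 and 12.79 on RC (-2.16 ± 0.41, adjusted p = 0.000273), while the defining adipocyte genes Adipoq, Plin1, Cfd and Retn reached at most 1.50 log2 CPM on HFD and 0.89 on RC and were at 0 reads in some livers of both groups. Muscle transcripts had sums of 1.80 to 168 CPM on HFD and 10.8 to 37.3 CPM on RC, with 0 of 7 called by limma (0 at an unadjusted p under 0.05, and 0 by voom). Ckm, the muscle creatine kinase, had 4.16, 4.97, 4.89 and -0.77 on HFD, against 2.69, 1.58, 2.44 and 1.33 on RC. The part of marker differences in the results above was not tested. Genes known to differ by strain varied little with diet: Hc, Glo1 and Alad had log2 fold changes of -0.03, -0.03 and -0.11.

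How the day 5 response of BALB/cJ livers differs from later days and from other strains was tested as a difference of diet effects in the same fit, between groups that share no animals. Against BALB/cJ on day 13, 452 genes differed (3.58%), and against BALB/cJ on day 33, 35 did (0.278%). Against DBA/2J on day 5, 528 differed (4.19%), and against C57BL/6J on day 5, 859 did (6.81%). Leaving out 1 of the 8 animals gave counts of 192 to 916 for day 13, 15 to 164 for day 33, 246 to 1141 for DBA/2J and 350 to 1717 for C57BL/6J, in each case highest without 3HF224. All but 2 of the BALB/cJ animals on day 5 carry low numbers and all C57BL/6J animals on day 5 carry higher ones, so strain and number range cannot be told apart in that pair. All BALB/cJ animals on day 13 likewise carry higher numbers than the low ones of day 5. Day and number range cannot be told apart in that pair either. On day 33 the BALB/cJ HFD animals are 3HF208, 3HF256, 3HF258 and 3HF259, and the RC animals 3RC208, 3RC209, 3RC211 and 3RC259. Diet therefore runs partly with number range on that day, in its diet effects and in the differences from them.

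**Figure D5:**
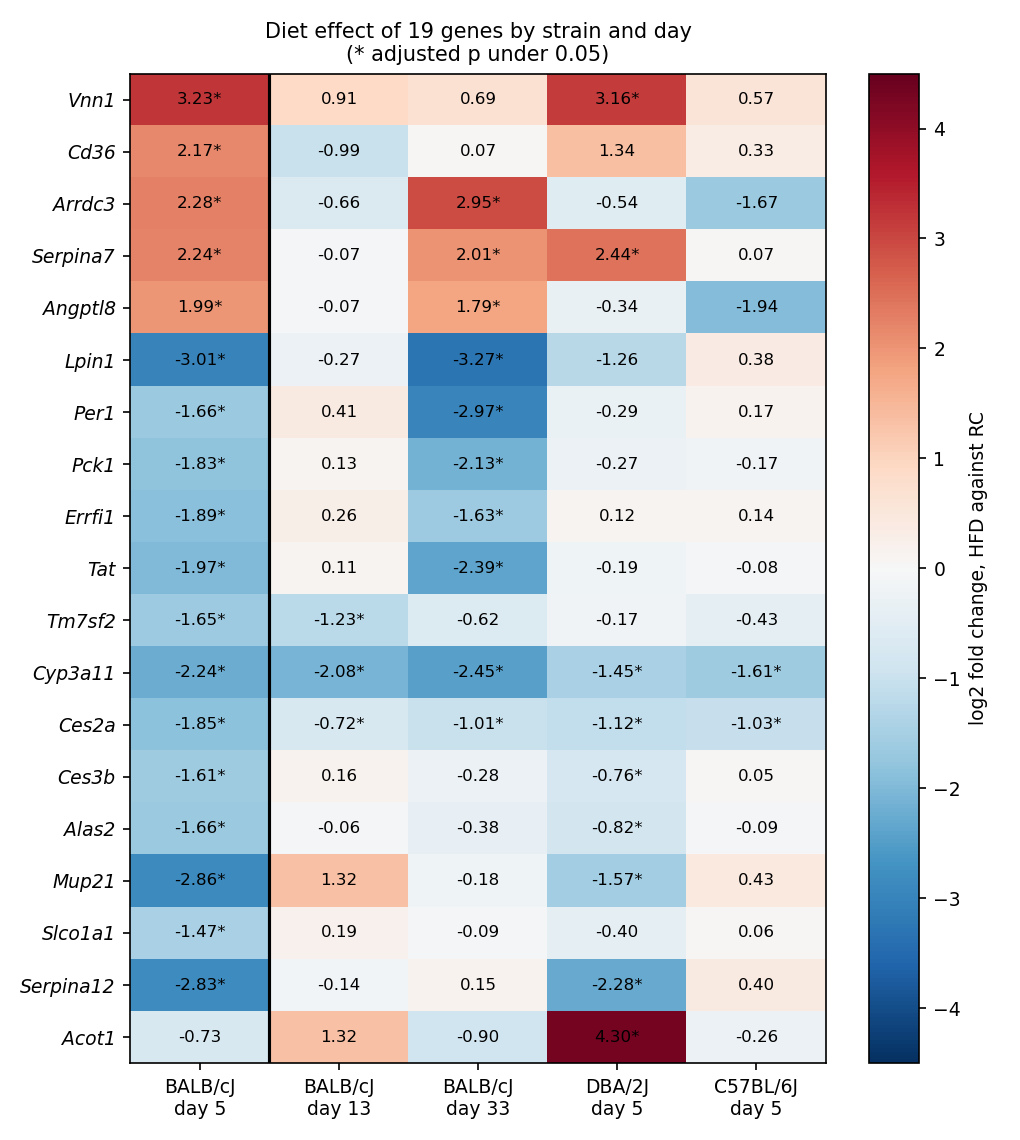
Log2 fold change, HFD against RC, of 19 genes in BALB/cJ livers on the 3 days, and on day 5 in livers of DBA/2J and C57BL/6J (colour and printed value; an asterisk marks an adjusted p under 0.05). Genes such as Errfi1 and Lpin1 have similar values on days 5 and 33 and near 0 on day 13, whereas Mup21 and Serpina12 are near 0 on both later BALB/cJ days or positive.

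One set of genes had a diet effect of the same direction on days 5 and 33 that was not called on day 13. Errfi1 had log2 fold changes of -1.89, 0.26 and -1.63 on days 5, 13 and 33 (days 5 and 13 differed by -2.15 ± 0.33, adjusted p = 6.06e-05). Pck1 had -1.83, 0.13 and -2.13 (difference -1.96 ± 0.46, adjusted p = 0.0105), Per1 had -1.66, 0.41 and -2.97 (difference -2.08 ± 0.54, adjusted p = 0.0192) and Arrdc3 had 2.28, -0.66 and 2.95 (difference 2.95 ± 0.70, adjusted p = 0.0112). For none of these 4 was the difference between days 5 and 33 called. It was -0.26 ± 0.33 in Errfi1, 0.30 ± 0.46 in Pck1, 1.30 ± 0.54 in Per1 and -0.67 ± 0.70 in Arrdc3. A missing call does not show equal effects, least of all in Per1, where -1.66 stood against -2.97. In the stress list the medians were -0.87 on day 5, 0.14 on day 13 and -1.86 on day 33.

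Another set had a larger fall on day 5 than on either later day. Slc22a28 had -2.64 on day 5, 0.07 on day 13 and 0.16 on day 33, and day 5 differed from both (-2.71 ± 0.44, adjusted p = 0.000126, and -2.81 ± 0.44, adjusted p = 0.000214). Lipc had -0.66, 0.15 and 0.25 (differences -0.81 ± 0.14, adjusted p = 0.000295, and -0.91 ± 0.14, adjusted p = 0.000191). Cyp4f14, a P450 of leukotriene and vitamin metabolism, had -1.10, 0.10 and 0.02 (differences -1.21 ± 0.19, adjusted p = 6.67e-05, and -1.12 ± 0.19, adjusted p = 0.000562). Slco1a1, Ces3b, Ces3a, Alas2 and Serpina12 also differed from both later days, by -0.79 to -2.99, with adjusted p of 1.42e-05 to 0.0109. In the major urinary and sex-dimorphic list 7 of 14 members had a lower diet effect on day 5 than on day 13, and 2 of 14 a lower one than on day 33. In a fit of the 24 BALB/cJ animals alone, limma called 0 genes for the difference between days 5 and 33 (962 at an unadjusted p under 0.05, and 31 called by voom over all animals), so every day 33 call in this paragraph was lost there, with adjusted p of 0.204 for Slc22a28, 0.12 for Lipc and 0.204 for Cyp4f14. Of the day 13 differences above, those of Per1, Pck1 and Serpina12 lost their call in that fit (adjusted p = 0.124, 0.178 and 0.0654).

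Some effects were common to all 5 groups. Cyp3a11 fell in each, by 2.24 in BALB/cJ on day 5, 2.08 on day 13, 2.45 on day 33, 1.45 in DBA/2J and 1.61 in C57BL/6J on day 5, and no difference from BALB/cJ day 5 passed. Ces2a also fell in each, by 1.85, 0.72, 1.01, 1.12 and 1.03 in the same order, and its fall in BALB/cJ on day 5 was larger than on day 13 (-1.13 ± 0.22, adjusted p = 0.00145), in DBA/2J (-0.74 ± 0.22, adjusted p = 0.0386) and in C57BL/6J (-0.82 ± 0.22, adjusted p = 0.0155). Cholesterol synthesis enzymes were lower on the later days too, 7 of 20 on day 13 and 3 on day 33, with medians of -1.22 and -0.49. The shares of all genes called in the diet effects of the other days and strains are not given here. List counts from those groups, here and below, therefore have no background beside them. On day 5 the median was -0.73 in BALB/cJ, against -0.05 in DBA/2J and -0.20 in C57BL/6J, but the test of the difference called 1 of 20 enzymes lower in BALB/cJ against DBA/2J and 1 against C57BL/6J.

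DBA/2J livers on day 5 set the contrast in fat oxidation. There 12 of 16 mitochondrial and 19 of 20 peroxisomal and microsomal oxidation genes rose, with medians of 0.86 and 1.57. Those counts likewise have no share of all genes beside them. Of these lists 6 and 10 members had a lower diet effect in BALB/cJ. Acot1, a cytosolic acyl-CoA thioesterase and PPAR alpha target, had 5.70, 6.92, 4.37 and 6.24 log2 CPM in BALB/cJ on HFD, against 6.82, 6.76, 7.63 and 4.96 on RC, a log2 fold change of -0.73 where DBA/2J had 4.30 (difference -5.03 ± 0.76, adjusted p = 6.27e-05). Acsl1 and Ephx2, an epoxide hydrolase, followed with differences of -1.89 ± 0.29 and -1.08 ± 0.17 (adjusted p = 6.27e-05 each). Vnn1 had 3.23 in BALB/cJ and 3.16 in DBA/2J (difference 0.07 ± 0.75, adjusted p = 0.97).

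On day 5 in C57BL/6J livers, 5 members of the P450 list and 2 of the conjugation and carboxylesterase list fell. No other member of the 24 lists was called. Against that strain, BALB/cJ had a higher diet effect in Arrdc3 (difference 3.95 ± 0.70, adjusted p = 0.000519), Angptl8 (3.94 ± 0.76, adjusted p = 0.00118) and Irf1 (2.19 ± 0.41, adjusted p = 0.00101). It had a lower one in Ces3b (-1.66 ± 0.25, adjusted p = 9.79e-05), Alas2 (-1.58 ± 0.25, adjusted p = 0.000128) and Errfi1 (-2.03 ± 0.33, adjusted p = 0.000128). Gadd45g ran in opposite directions, with -2.40 in BALB/cJ and 1.40 in C57BL/6J (difference -3.80 ± 1.08, adjusted p = 0.0258).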

How the data were processed

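Liver RNA from 72 mice (18 groups of strain, diet and day, 4 each) was measured by stranded mRNA sequencing, per the labels' protocols. STAR 2.5.3a, edgeR and the mouse build GRCm38 are named in the submitters' processing notes. The deposited values are log2 CPM per gene, made by the authors. Their steps returned whole reads in 100% of values under 2000 reads (tolerance 0.05 reads). All strains were mapped to one genome, so strain variants may shift the level of single genes.

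Differences came from 1 limma trend fit (limma 3.58.1, R 4.3.3) of 12611 genes over 72 animals with 54 residual degrees of freedom, with Benjamini-Hochberg adjustment over all genes and a threshold of 0.05. The script was tested on simulated data. Named genes are the 12 highest and 12 lowest log2 fold changes among called genes above median level with separate groups, up to 4 called genes of smallest p per list, the 3 of smallest p per difference, and Hc, Glo1 and Alad. Some genes of these lists and rules, counted in the totals, are not reported here. The animals, members and lists were chosen with earlier results of these data known. Labels do not say that animals are more than separate samples of a group, so p-values measure the spread between these samples. The series text gives 5, 13 and 13 days, whereas the sample labels give 5, 13 and 33, which were used. Extra liver libraries whose titles add a letter to 1HF225L, 2RC229L, 3RC230L or 3RC259L were not analysed here. Intervals cover counting and animal spread only as far as the fit holds it.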

Additional observations from a re-analysis of the deposited data

Results flagged for a closer look

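In 19 of 302 groups of 4 animals tested over the named genes, 1 animal lay farther from the others than the critical ratio of 0.829, where chance gives about 1 in 20. 3HF224 gave 10 of these and 3RC251 gave 6. 3HF224 was high for Plin5 (7.44 log2 CPM), Dhcr7 (6.51), Scd1 (13.98), Lpin1 (7.33), Pltp (5.46), Pfkfb3 (3.89), Mki67 (3.23) and Top2a (3.27), and low for Dbp (4.22) and Ckm (-0.77). 3RC251 was low for Angptl4 (7.15 log2 CPM), Cyp2a4 (0.75), Cyp27a1 (9.12), Zbtb16 (2.44) and Hlf (6.29), and high for Mup7 (9.86). Cyp4a14 was high in 3HF202 (11.36 log2 CPM), Cyp2c50 low in 3HF203 (6.56) and Serpina12 high in 3RC201 (6.72).

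The diet effect on day 5 in BALB/cJ differed by limma's test of the difference for 31 named genes, given here for the comparison with the smallest p. Against BALB/cJ on day 13 the log2 difference was negative for Alas2 (-1.60), Ces3a (-1.21), Ces3b (-1.77), Cyp4f14 (-1.21), Errfi1 (-2.15), Mup12 (-3.22), Mup21 (-4.18), Mup7 (-2.61), Selenbp2 (-2.95) and Slc22a28 (-2.71). It was positive for Cd36 (3.16), Ddah1 (1.64), Efna1 (1.72) and Serpina7 (2.31). In the limma fit of BALB/cJ animals alone, these positive differences and the negative one of Mup7 were not called. The adjusted p there was 0.124 for Cd36, 0.0967 for Ddah1, 0.133 for Efna1, 0.136 for Serpina7 and 0.0553 for Mup7. Against BALB/cJ on day 33 the log2 difference was 1.31 for Cyp3a13 and -0.91 for Lipc. Neither was called in the limma fit of BALB/cJ animals alone (adjusted p = 0.278 and 0.12). Against DBA/2J on day 5 the log2 difference was -5.03 for Acot1, -1.89 for Acsl1, -2.77 for Dusp1, -4.57 for Elovl3, -1.08 for Ephx2 and 1.56 for Il13ra1. Against C57BL/6J on day 5 it was 2.56 for Acnat2, 3.94 for Angptl8, 3.95 for Arrdc3, 2.19 for Irf1 and 2.66 for Vnn1, and -3.80 for Gadd45g, -2.97 for Rasgef1b, -3.23 for Serpina12 and -2.61 for Tcim.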

How the results depend on the processing

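Counts of called genes are given here as percent of the genes tested. The diet share of 12.5% was 0.301% with the 8 animals alone, 5.34% with the 24 BALB/cJ animals, 2.89% with weights per group, 22.5% with numbers under 220, 13.8% with genes at or above the median level (868 of 6306 genes) and 22.3% without 3HF224 and 3RC251, and 6.03 to 19.8% without 1 animal. The day 13 difference (3.58%) was 0.452% with the 24 BALB/cJ animals, 0.73% with weights, 9.98% without 3HF224 and 3RC251 and 1.52 to 7.26% without 1 animal. The day 33 difference (0.278%) was 0% with the 24 BALB/cJ animals by limma (962 genes at an unadjusted p under 0.05; voom over all animals called 31), 1.36% with numbers under 220, 0.42% after quantile normalization, 1.10% without 3HF224 and 3RC251 and 0.119 to 1.30% without 1 animal. The DBA/2J difference (4.19%) was 2.04% with weights, 11.96% with numbers under 220, 11.4% without 3HF224 and 3RC251 and 1.95 to 9.05% without 1 animal. The C57BL/6J difference (6.81%) was 2.05% with weights, 6.66% with genes at or above the median level (420 of 6306 genes), 16.6% without 3HF224 and 3RC251 and 2.78 to 13.6% without 1 animal. The cause of these shifts was not tested.

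Same-numbered HFD and RC animals had deviations that correlated at -0.053, 0.151 and 0.115, so the numbers were not taken as pairs. As a hint from the data, 3HF202 and 3HF203 correlated best with their own number and 3HF201 did not. With the replicate block over all liver animals the shares were 23.8% for diet, 8.87% for day 13 and 1.92% for day 33. They were 13.04% for DBA/2J and 1.03% for C57BL/6J. With the replicate block over the 8 animals the diet share was 3.2%. An animal whose number no other liver in the fit shares adds nothing to a difference there. Over all livers this holds for 3HF224, and on day 5 in C57BL/6J for 1HF225, 1HF249, 1HF250, 1RC226 and 1RC248. Over the 8 animals it holds for 3HF224 and 3RC251.

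Of 131 called genes named in the text, 0 changed direction in the settings that tested them. With weights per group 72 lost their call, with the 24 BALB/cJ animals 64 did, and with the 8 animals alone 118 did. In all 21 settings 8 were tested and kept their call: Arrdc3, Ces2a, Ces3b, Cyp27a1, Ech1, Per1, Rasgef1b and Serpina12. Genes under the median level were not tested in the setting limited to genes at or above it, which held 112 of the 131. The edgeR and DESeq2 fits on recovered reads were not run. Voom on those reads, chosen after seeing the data as was leaving out 3HF224 with 3RC251, called 1427 genes for diet. The HFD animals were more uneven than the RC animals, and 4 animals a group limit what can be called.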
